A study of Mus musculus with 24 samples.

Results

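The acute-phase and mucosal defence genes of the mouse mammary gland described here were Saa1, Saa2, Saa3, Lcn2, Hp, Orm1, Ltf, Pigr, C3 and Lbp. They were taken as every non-control probe of the array whose gene name equals one of these symbols, which gave 13 probes for 10 genes of the 34797 gene names on the array. 7 genes had 1 probe each, and Pigr, C3 and Lbp had 2 probes each. Total RNA of whole mammary tissue was hybridised to 1-colour Agilent expression arrays, 24 in all, 3 in each of 8 groups. The mice were females of 2 inbred strains: BALB/c, which the study treats as sensitive to radiation-induced mammary cancer, and SPRET/EiJ, a wild-derived Mus spretus strain that it treats as resistant. LDIR groups (low-dose ionizing radiation) received 10 cGy of X-rays to the whole body at 8 to 9 weeks of age, and sham groups received no radiation. BALB/c glands were collected 2, 4 and 8 weeks later from sham and LDIR mice, and SPRET/EiJ glands at 4 weeks only. The study's methods call the 3 arrays of a group biological replicates.

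The acute-phase response is the change in plasma proteins that follows infection or injury. Inflammatory cytokines drive it through STAT3, NF-kappaB and the C/EBP factors, mostly in the liver, and many of the same genes are also expressed by epithelium, fat and leukocytes. In the mammary gland several of these products enter milk and guard the gland and the newborn gut against bacteria. Whole tissue was measured, so that fewer cells of a type and less RNA per cell cannot be told apart.

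The probe sequences come first because they set what each value can be read as. 3 probes are printed, 5′ to 3′: that of Saa1, which was above background on every array, the junction probe of Lbp, whose 60 bases the array's annotation (mouse build mm9) spreads over chr2:158154142-158157684, and the brighter of the probes named Pigr. In the last one the capitals mark a run that holds only G and A, and the run covers all 60 bases.
Saa1 probe, chr7:53996070-53996129, minus strand: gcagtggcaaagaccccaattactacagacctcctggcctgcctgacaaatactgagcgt
Lbp junction probe, plus strand: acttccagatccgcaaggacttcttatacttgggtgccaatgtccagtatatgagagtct
Pigr repeat probe, chr13:108165151-108165210, minus strand: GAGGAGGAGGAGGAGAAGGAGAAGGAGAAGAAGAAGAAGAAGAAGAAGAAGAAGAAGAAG
The annotation places the repeat probe on chromosome 13, while Pigr lies on chromosome 1 and the other Pigr probe maps there (chr1:132748041-132748100). What the repeat probe hybridised to was not tested, and its values are given below as those of the repeat probe rather than of Pigr. The second Lbp probe (chr2:158136176-158136235) lies upstream of the junction probe. The C3 probes lie at chr17:57343416-57343475, spotted 10 times on each array, and at chr17:57343678-57343737.

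Promoters were found for 7 members in a RefSeq table of build GRCm38.p6, and the 250 bases before the start of each were searched on both strands for letters that match the binding motifs of the acute-phase factors. A C/EBP match (TTGCNNAA) stood in 6 of 7 members' promoters and in 9.56% of all 32851 promoters. A STAT match (TTCNNNGAA) stood in 0 of 7 members' promoters against 7.02% of all, and a match to all positions of the NF-kappaB consensus, looser forms of which were not searched, in 0 of 7 against 3.90%. A match describes letters in this window only. The serum amyloid A promoters and that of Lcn2 are printed to show the C/EBP match, which is in capitals.
Saa1, chr7:46742981-46743230, minus strand: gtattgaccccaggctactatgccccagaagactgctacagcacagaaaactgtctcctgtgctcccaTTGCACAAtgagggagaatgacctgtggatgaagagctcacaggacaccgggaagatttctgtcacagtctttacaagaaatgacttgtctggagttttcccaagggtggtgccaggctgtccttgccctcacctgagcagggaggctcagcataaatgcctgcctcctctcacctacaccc
Saa2, chr7:46751583-46751832, plus strand: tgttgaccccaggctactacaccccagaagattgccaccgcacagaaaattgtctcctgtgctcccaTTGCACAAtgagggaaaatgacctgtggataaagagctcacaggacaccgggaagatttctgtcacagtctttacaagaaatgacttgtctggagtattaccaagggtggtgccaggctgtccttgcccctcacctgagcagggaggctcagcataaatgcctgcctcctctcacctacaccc
Saa3, chr7:46715677-46715926, minus strand: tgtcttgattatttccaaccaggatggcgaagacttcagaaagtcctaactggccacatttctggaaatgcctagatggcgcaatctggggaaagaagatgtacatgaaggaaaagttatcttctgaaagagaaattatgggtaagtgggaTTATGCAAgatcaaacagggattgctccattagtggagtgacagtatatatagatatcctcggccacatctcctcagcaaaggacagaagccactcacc
Lcn2, chr2:32387740-32387989, minus strand: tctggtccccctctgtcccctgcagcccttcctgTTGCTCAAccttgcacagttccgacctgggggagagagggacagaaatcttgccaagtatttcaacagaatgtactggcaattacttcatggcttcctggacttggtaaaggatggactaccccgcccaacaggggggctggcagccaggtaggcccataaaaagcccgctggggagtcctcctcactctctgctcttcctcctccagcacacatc
The Saa1 and Saa2 promoters were identical in 94.8% of 251 aligned columns, and that of Saa3 shared 50.2% with Saa1 and 50.6% with Saa2. The match lies 182 bases before the start in Saa1, 183 in Saa2, 99 in Saa3 and 216 in Lcn2. The Pigr promoter was the one without a match.

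Levels are given as log2 of the processed signal after each array's 75th percentile was set to 0, so that a level of 1 is 1 log2 unit above that percentile. Between 57.1% and 72.6% of spots per array were well above background, and no spot was saturated. On all 24 arrays 9 of 13 member probes stood well above background. The others were those of Saa2 (11 arrays), Saa3 (15 arrays), the dim chromosome 1 probe of Pigr (12 arrays) and the second Lbp probe (23 arrays). The levels of different probes are not set against each other. Saa1 and Saa2 are near-identical genes, as are Orm1 and its neighbours in its family, and cross-hybridisation between them was not tested. The arrays sat on 3 slides, and slide followed the design: all BALB/c arrays of 2 weeks and the 4-week sham arrays A and B were on slide 1. Slide 2 held the other 4-week BALB/c arrays, all 8-week sham arrays and 8-week LDIR array A, and slide 3 held 8-week LDIR arrays B and C with all SPRET/EiJ arrays.

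**Figure D1:**
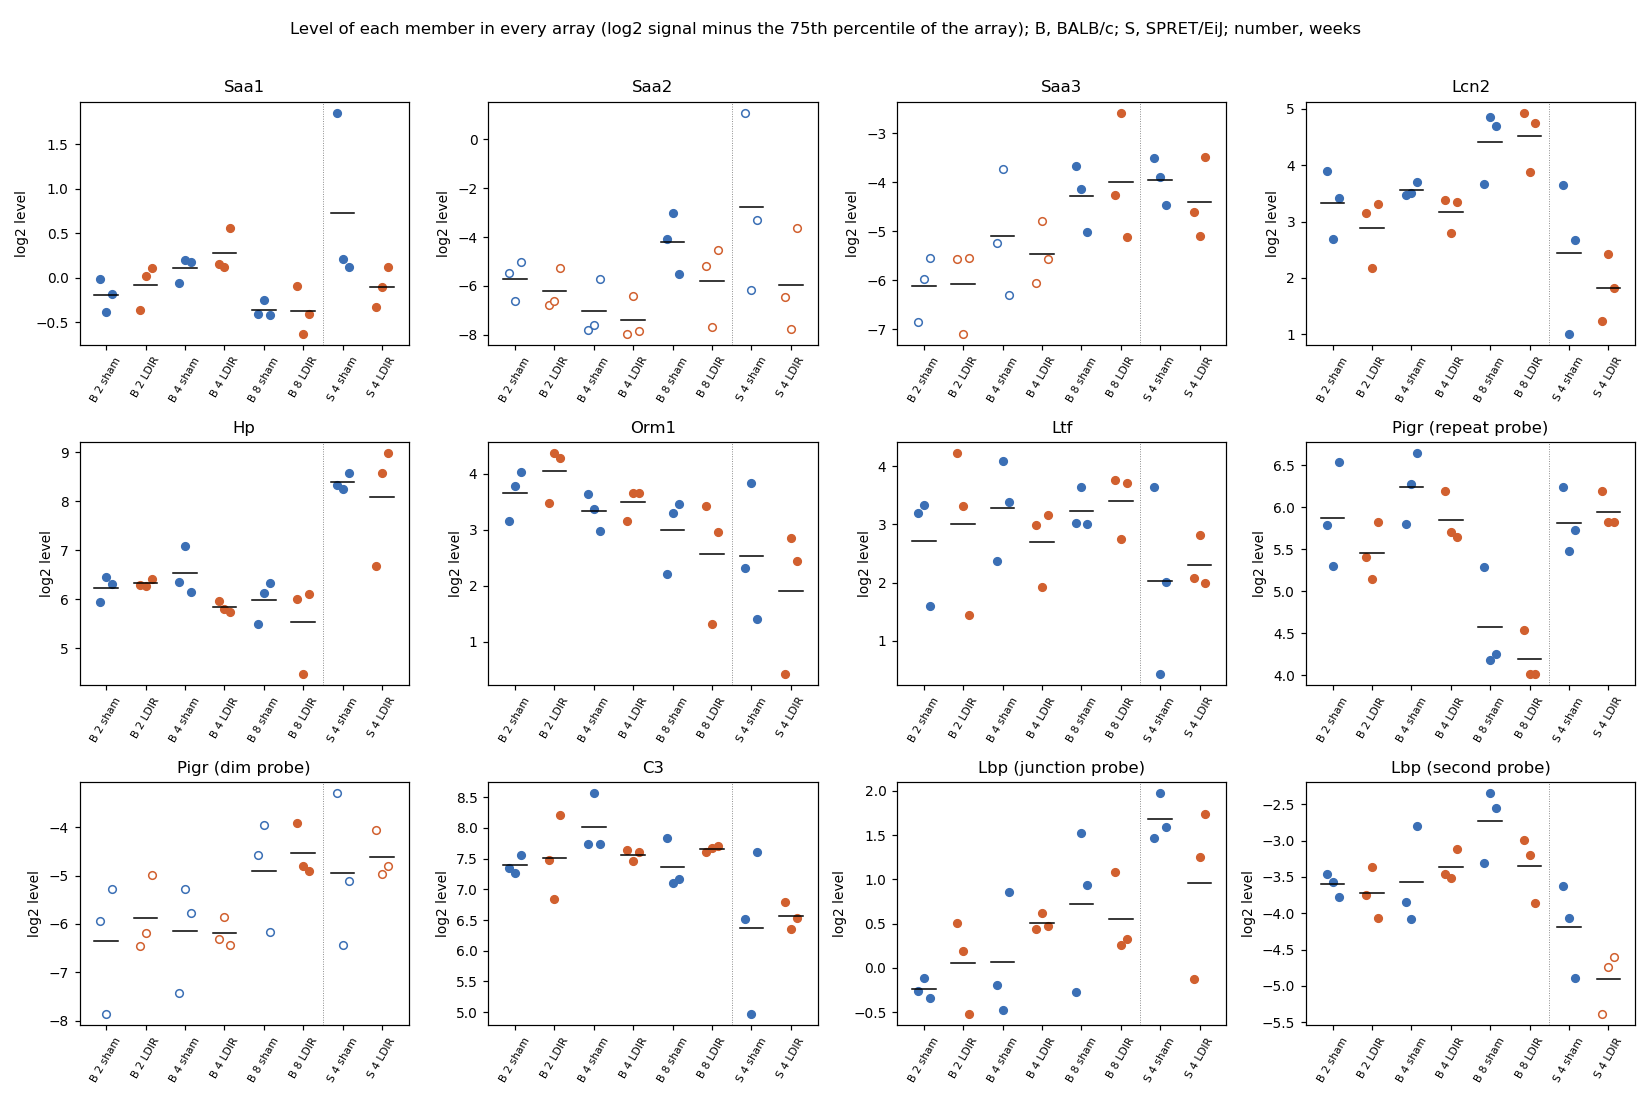
Level of 12 of the 13 member probes, C3 by its 10-spot probe (y axis, log2 relative to the array's 75th percentile) in the 8 groups (x axis), 1 symbol per array (blue sham, orange LDIR) and a bar at the group mean, with open symbols where at least 1 array of the group was not well above background. Hp lies higher on the SPRET/EiJ arrays (6.69 to 8.99) than on most BALB/c arrays (4.48 to 7.09), and Saa2 has 1 SPRET/EiJ sham array at 1.10.

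The serum amyloid A genes encode apolipoproteins of high-density lipoprotein that rise strongly in plasma during inflammation, and Saa3 is the form best known outside the liver. Saa1 was measurable throughout and varied little in BALB/c, where its lowest, median and highest levels over 18 arrays were -0.63, -0.07 and 0.56. In SPRET/EiJ sham mice Saa1 was 1.86, 0.21 and 0.12, and in SPRET/EiJ LDIR mice -0.33, -0.11 and 0.12. The SPRET/EiJ groups did not overlap, but the nearest arrays both round to 0.12, and sham array A carried most of the difference between the means. Saa2 was well above background on 8 of 18 BALB/c arrays and 3 of 6 SPRET/EiJ arrays. On SPRET/EiJ sham array A it reached 1.10, which was 20.9-fold over the next sham array, and the other SPRET/EiJ sham arrays were at -6.16 and -3.29. Saa3 was well above background on 0 of 3 arrays in each 2-week group and on all 3 in each 8-week and SPRET/EiJ group. Its range was -7.09 to -2.58 in BALB/c and -5.09 to -3.48 in SPRET/EiJ, and these ranges overlapped.

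Lcn2, lipocalin 2, withholds iron from bacteria by binding their siderophores. Its level in BALB/c was 3.90, 2.69 and 3.41 in sham and 3.15, 2.18 and 3.32 in LDIR mice at 2 weeks. At 4 weeks it was 3.48, 3.51 and 3.70 in sham and 3.38, 2.79 and 3.35 in LDIR mice, so that every LDIR array lay below every sham array. At 8 weeks it was 3.67, 4.85 and 4.69 in sham and 4.93, 3.88 and 4.76 in LDIR mice, and the groups were mixed. In SPRET/EiJ it was 3.65, 1.01 and 2.68 in sham and 1.24, 2.42 and 1.82 in LDIR mice. Ltf, lactoferrin, is an iron-binding protein of milk and of neutrophil granules. It was the most variable member among those above background on all arrays, with a standard deviation within groups of 0.96, and ranged from 1.45 to 4.23 in BALB/c and from 0.43 to 3.65 in SPRET/EiJ. Pigr is the receptor that carries polymeric immunoglobulins across epithelium into milk. Its chromosome 1 probe was dim, between -7.86 and -3.29, and in no LDIR array of BALB/c at 4 weeks was it well above background.

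Hp, haptoglobin, binds free haemoglobin. In BALB/c sham mice it was 5.95, 6.46 and 6.31 at 2 weeks. At 4 weeks the sham levels were 6.35, 7.09 and 6.15, and at 8 weeks 5.50, 6.13 and 6.34. In BALB/c LDIR mice it was 6.29, 6.27 and 6.42 at 2 weeks. The 4-week LDIR levels were 5.97, 5.79 and 5.74, and those of 8 weeks 6.01, 4.48 and 6.11. SPRET/EiJ mice had 8.34, 8.26 and 8.58 in the sham group and 6.69, 8.58 and 8.99 in the LDIR group. Each SPRET/EiJ sham array lay above every BALB/c array, and 1 SPRET/EiJ LDIR array lay within the BALB/c range. Orm1, orosomucoid 1, carries small lipophilic ligands in plasma, and its BALB/c levels ran from 1.32 to 4.38 with a median of 3.44, against 0.42 to 3.84 with a median of 2.38 in SPRET/EiJ.

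C3 is the protein on which all routes of complement activation converge. Its 10-spot probe was 7.34, 7.27 and 7.55 in BALB/c sham mice and 7.48, 6.85 and 8.21 in LDIR mice at 2 weeks. At 4 weeks it was 7.74, 8.57 and 7.75 in sham and 7.64, 7.46 and 7.60 in LDIR mice, and at 8 weeks 7.83, 7.10 and 7.17 in sham and 7.60, 7.67 and 7.71 in LDIR mice. In SPRET/EiJ it was 6.52, 4.97 and 7.61 in sham and 6.79, 6.36 and 6.53 in LDIR mice. BALB/c LDIR and sham levels did not overlap at 4 weeks and overlapped at 2 and 8 weeks. Lbp hands bacterial lipopolysaccharide to its receptors, and its junction probe ranged from -0.52 to 1.52 in BALB/c and from -0.13 to 1.97 in SPRET/EiJ.

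The first question was whether LDIR changed these genes. A probe was called where limma gave an unadjusted p under 0.05 with a difference above 1.5-fold, and p adjusted over all 55679 to 55681 probes tested is given beside it. These thresholds follow the methods. At 2 weeks in BALB/c 0 of 13 member probes were called, against 3.13% of all probes, and 0 had groups that did not overlap, against 11.6%. At 4 weeks 1 of 13 was called, against 4.78% of all probes, and 4 did not overlap, against 12.2%. At 8 weeks 0 of 13 were called, against 1.8%, and 0 did not overlap, against 4.84%. In SPRET/EiJ 0 of 13 were called, against 2.2%, and 1, that of Saa1, did not overlap, against 5.85%. Over the 3 times of BALB/c together 0 of 13 were called, against 1.08%. After adjustment limma left 0 of all probes under 0.05 in each of these comparisons, while 2787, 3392, 1033, 1231 and 1771 probes were under 0.05 unadjusted at 2, 4 and 8 weeks, in SPRET/EiJ and over the 3 BALB/c times. Of the member probes 0, 1, 0, 0 and 0 were.

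The member called was Hp, lower in LDIR mice at 4 weeks in BALB/c. Its mean was 5.84 ± 0.12 (SD, n = 3) in LDIR and 6.53 ± 0.49 (SD, n = 3) in sham mice, a difference of -0.70 (SE 0.27), or 1.62-fold. limma's unadjusted p was 0.039 and the adjusted p was 0.783, with a 95% interval of the difference from -1.35 to -0.05. Neither the methods' t-test nor the fit with the replicate block called it. The value rests on slides that differ: with slide as a block the difference was -0.32 and was not called, and sham array C, the one on the slide of the LDIR arrays, was 6.15 against 5.74 to 5.97. Leaving out any of the 6 arrays but sham array C also ended the call. Sham array B was the highest at 7.09, and without it the difference was -0.42, while the other 4 lost calls kept it between -0.79 and -0.65. Lcn2 and both C3 probes were the other members whose LDIR arrays all lay below the sham arrays at 4 weeks. Their differences were -0.39, -0.45 and -0.44, with limma's adjusted p of 0.783 for each.

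The intervals show which changes the other members could still have had. For the probes above background throughout, the 95% interval at 2 weeks in BALB/c was narrowest for Hp, from -0.34 to 0.52, and widest for Ltf, from -1.65 to 2.22. With replicate letters as pairs, a reading that rests on the detected probes alone, these became -0.37 to 0.55 and -0.52 to 1.09, and 0 of 13 member probes had an unadjusted p under 0.05 in limma. Within the 3 pairs Orm1 was higher in LDIR mice by 0.32, 0.59 and 0.24, Lcn2 lower, by -0.75, -0.51 and -0.10, and the repeat probe lower, by -0.38, -0.16 and -0.72. These 3 of 13 probes differed in 1 direction in all pairs, against 30.4% of all probes. At 8 weeks the interval of Saa1 ran from -0.61 to 0.58 and that of Orm1 from -2.02 to 1.15. In SPRET/EiJ it ran from -0.57 to 0.82 for the repeat probe and from -2.54 to 1.30 for Orm1. The median difference of the 13 probes was 0.11 at 2 weeks, -0.38 at 4 weeks, -0.02 at 8 weeks and -0.44 in SPRET/EiJ, beside 0.00, 0.02, -0.14 and 0.04 over all probes. These member medians include probes near background.

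**Figure D2:**
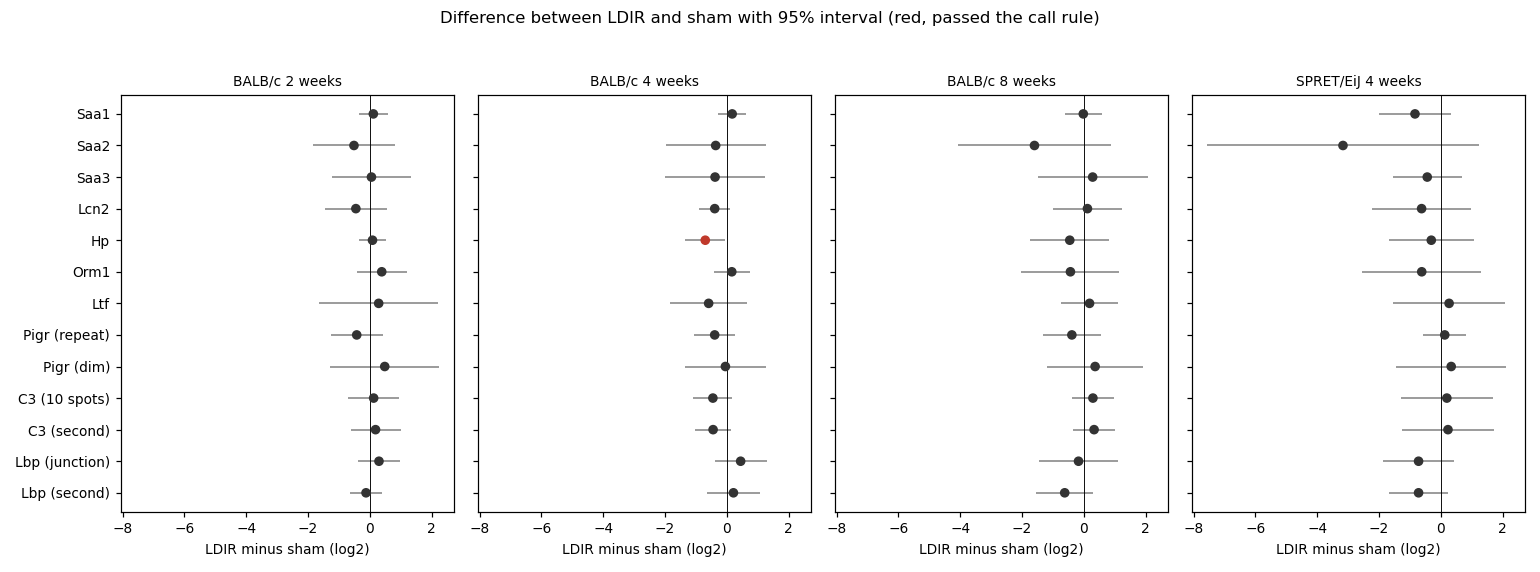
LDIR minus sham difference of each member probe (x axis, log2) with its 95% interval, for the 3 BALB/c times and for SPRET/EiJ at 4 weeks. The interval that leaves out 0 is that of Hp in BALB/c at 4 weeks, at -0.70.

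Whether the strains responded differently was tested by the interaction of strain and LDIR at 4 weeks. 0 of 13 member probes were called, against 3.53% of all probes, and the smallest adjusted p of a member was 0.957. 0 of all probes passed an adjusted p of 0.05 in limma, with 1967 under 0.05 unadjusted and 0 of the members among them. The interaction estimate for Hp was -0.39 with a 95% interval from -1.92 to 1.14, and that for Saa1 was 1.01, from -0.22 to 2.24.

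Time could be read within slide 2, which held 4-week and 8-week BALB/c arrays, and is given as levels without a test. Time and dose were not balanced there, with 1 sham and 3 LDIR arrays at 4 weeks and 3 sham arrays and 1 LDIR array at 8 weeks, and the ranges below pool both doses. Lcn2 was 3.70 in the 4-week sham array and 3.38, 2.79 and 3.35 in the 4-week LDIR arrays there, against 3.67, 4.85 and 4.69 in sham and 4.93 in LDIR arrays at 8 weeks. All but 1 of the 8-week values were above every 4-week value. Saa1 ran the other way, from 0.12 to 0.56 at 4 weeks and from -0.42 to -0.09 at 8 weeks. The repeat probe was 5.64 to 6.65 at 4 weeks and 4.19 to 5.29 at 8 weeks. Saa2 was -7.95 to -5.72 at 4 weeks, well above background on 0 of 3 arrays in either 4-week group, and -5.51 to -3.03 at 8 weeks. Of the 13 probes, these 3 did not overlap between the times, against 18.8% of all probes, 2 lower and 1 higher at 8 weeks, and the other 10 did, Hp, Orm1, C3 and Lcn2 among them. A count of 3 of 13 is near the share of all probes and is not read as a change of the members with time. Sums of listed genes were read on the same 8 arrays. Skeletal muscle markers summed to 1.27 to 1.87 at 4 weeks and 31.7 to 135 at 8 weeks, white adipocyte markers to 2287 to 3323 and 1365 to 2274, and complement genes to 1058 to 1359 and 675 to 863. None of these overlapped, nor did the sums of the mucosal and the cytokine lists, and their part in the member values was not tested.

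The second question was how the strains differed at 4 weeks, for which the call needed an unadjusted p under 0.001. In sham mice 1 of 13 member probes was called, against 8.85% of all probes. This was Hp. Its BALB/c mean was 6.53 ± 0.49 (SD, n = 3), and its SPRET/EiJ mean was 8.39 ± 0.17 (SD, n = 3). The difference, BALB/c minus SPRET/EiJ, was -1.86 (SE 0.28), or 3.64-fold higher in SPRET/EiJ, with limma's unadjusted p of 0.00044 and adjusted p of 0.0066. The 2 BALB/c 8-week LDIR arrays on the slide of the SPRET/EiJ arrays had Hp at 4.48 and 6.11, below all 6 SPRET/EiJ arrays. When all 24 arrays were fitted with a slide block, the Hp difference was -2.96, with p above the threshold of 0.001. Leaving out any of the 6 arrays but BALB/c sham array B ended the call of Hp, with differences between -1.93 and -1.67. Over the 6 sham arrays of this comparison, 3 member probes did not overlap between strains, against 36.8% of all probes: Hp, the 10-spot C3 probe and the Lbp junction probe. 2 had an adjusted p under 0.05, against 18.7%: Hp, and the Lbp junction probe with a difference of -1.62 and an adjusted p of 0.030.

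In LDIR mice 0 of 13 member probes were called between the strains, against 5.67% of all probes. 3 had an adjusted p under 0.05, against 11.1%, and 8 did not overlap, against 33.2%. Named here after their values were seen, the 3 were the 10-spot C3 probe, higher in BALB/c by 1.00 (adjusted p 0.036), the second Lbp probe, higher in BALB/c by 1.55 (adjusted p 0.019) and well above background on 2 of 3 SPRET/EiJ LDIR arrays, and the chromosome 1 probe of Pigr. That Pigr probe was well above background on 0 of 3 BALB/c LDIR arrays and 2 of 3 SPRET/EiJ LDIR arrays, and with the SPRET/EiJ arrays taken at their measured levels, 1 of them not well above background, it was at least 2.15-fold higher in SPRET/EiJ (adjusted p 0.026). For this bound each BALB/c array was given the lowest signal that any of its probes had well above background, or the probe's own signal where that was higher. The Hp difference in LDIR mice was -2.25 with an adjusted p of 0.056. The 4-week BALB/c LDIR arrays were all on slide 2 and the SPRET/EiJ arrays all on slide 3, and slide can be separated from strain only through the 8-week LDIR arrays of BALB/c, which lay on both. With slide as a block over 24 arrays the differences were 1.09 for C3, 1.02 for the second Lbp probe and -2.97 for Hp, with limma's adjusted p of 0.720, 0.529 and 0.071. For the chromosome 1 Pigr probe the fitted difference went from -1.59 to -2.54 (adjusted p 0.508), and after normexp background correction it was -0.35, smaller than the 2.15-fold. That correction also reduced the difference of the second Lbp probe, to 0.46. The array's probes are annotated on the mm9 reference genome, and the part of sequence differences between SPRET/EiJ and that reference was not tested. The median difference of the 13 probes was 0.43 in sham and 0.39 in LDIR mice, beside -0.06 and -0.05 over all probes.

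Of the 13 probes Saa2 had the largest difference between the sham groups and the widest interval. It was well above background on 0 of 3 BALB/c and 2 of 3 SPRET/EiJ sham arrays, and with the SPRET/EiJ arrays taken at their measured levels, 1 of them not well above background, the mean there was at least 7.32-fold higher, but the adjusted p was 0.159 and the 95% interval of the difference ran from -8.53 to 0.02. The mean rests on SPRET/EiJ sham array A. That array also had the highest Saa1, Saa2 and chromosome 1 Pigr levels of all 24 arrays, and its Ltf was 3.12-fold and its Lcn2 1.96-fold over the next sham array of its group. Hp, Orm1, C3 and the Lbp junction probe were each below the highest other sham array there. Beside this, the summed level of the other acute-phase genes was 434 on that array and 250 and 212 on the other sham arrays of the group, in units of the array's 75th percentile. The sum of the other mucosal genes was 501 there, against 265 and 398. Complement genes went the other way, with 1093 there, against 1147 and 1258. The sum of 7 milk protein genes was 124 there, against 2.71 and 13.7. The milk protein sum was higher still, 164 and 165, on BALB/c 8-week sham array A and LDIR array B, where Saa2 was at -4.07 and -7.68. The part of these sums in the Saa2 value was not tested. The sum over 10 luminal epithelial markers was 155 to 306 in BALB/c sham and 27.8 to 133 in SPRET/EiJ sham mice, and its part in the strain differences was not tested.

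**Figure D3:**
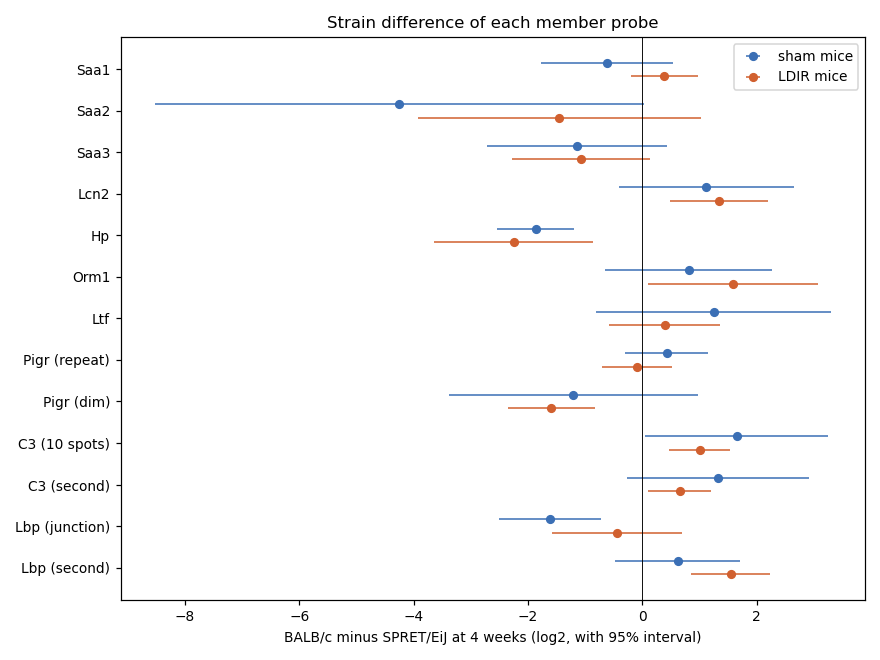
BALB/c minus SPRET/EiJ difference of each member probe at 4 weeks (x axis, log2) with its 95% interval, in sham and in LDIR mice. Hp lies to the left of 0 in both (-1.86 and -2.25), while the Lbp probes lie on opposite sides of 0 in each.

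Genes with a pair of probes show how far a value belongs to the probe. The C3 probes moved together (Pearson's r of 0.98 over 24 arrays). The Lbp probes moved together within each strain, with r of 0.82 over 18 BALB/c and 0.67 over 6 SPRET/EiJ arrays, but with r of 0.01 over all 24. Their strain differences had opposite signs, with sham differences of -1.62 and 0.62 and LDIR differences of -0.45 and 1.55. No strain direction can therefore be given for Lbp as a gene. The probes named Pigr had r of -0.10 over 24 arrays, of -0.36 over the 18 BALB/c arrays and of 0.97 over the 6 SPRET/EiJ arrays. These are descriptions over arrays that share strain, time and slide.

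**Figure D4:**
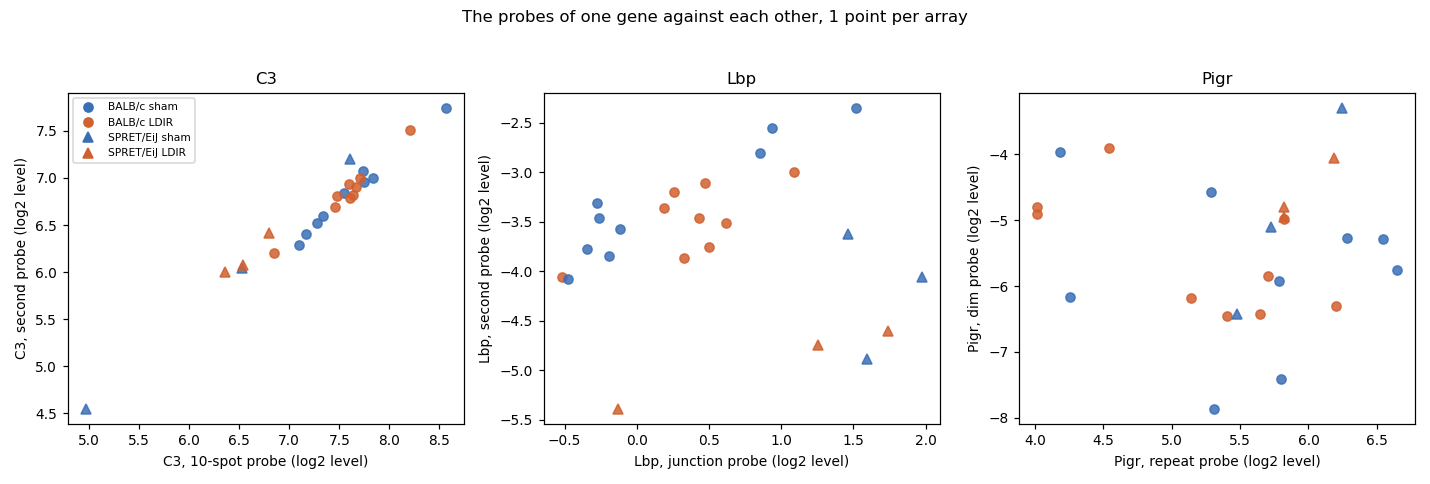
Level of the brighter probe (x axis) against that of the dimmer probe (y axis) of C3, Lbp and Pigr, both log2 relative to the array's 75th percentile, 1 symbol per array. The C3 points lie along 1 line, the Lbp points form a separate band for each strain, and the Pigr points have no common line.

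The members did not vary as 1 block. After the mean of each group was removed, the highest correlations over 24 arrays were those of Saa1 with Saa2 (0.73), of the repeat probe with the chromosome 1 probe of Pigr (0.69), of Saa2 with the latter (0.68), of Hp with Orm1 (0.68) and of Saa1 with Lcn2 (0.62). In BALB/c alone they were 0.45, 0.64, 0.63, 0.79 and 0.47. Saa2 and the chromosome 1 probe of Pigr were well above background on 11 and 12 of the 24 arrays, so their correlations include values at background. Saa1, Saa2 and that Pigr probe were also each highest on SPRET/EiJ sham array A. C3 went against Orm1 with -0.56 over 24 arrays and against the Lbp junction probe with -0.48, and with -0.19 and -0.69 in BALB/c alone. The standard deviation within groups was well over the median of 29395 probes above background on all arrays, 0.31, for Ltf (0.96), Orm1 (0.83), Lcn2 (0.68), Hp (0.60), the Lbp junction probe (0.60) and the C3 probes (0.58 and 0.57). Of 13437 genes above background on all arrays, those most like Lcn2 over 24 arrays were Pdlim3 (r of 0.95) and Tfap2c (0.94), a transcription factor of luminal epithelium. Those most like Orm1 were Nomo1 (0.96) and Lctl (0.95), and those most like Hp were Eci3 and Slc13a4 (both 0.96). In the 18 BALB/c arrays these were 0.93, 0.87, 0.95, 0.93, 0.80 and 0.79.

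The wider acute-phase, mucosal, complement, cytokine and receptor genes were read from lists that leave the members out. At 4 weeks in BALB/c, 9 of 23 complement genes were called higher in LDIR mice, against 3.37% of all probes called higher, and 0 were called lower. The count of 9 fell to 4 with the methods' t-test, without sham array B or without LDIR array A. The list's median difference was 0.50, beside 0.02 over all probes. C6, a component of the membrane attack complex, was -1.53, -1.99 and -2.24 in LDIR and -2.66, -3.78 and -2.72 in sham mice, a difference of 1.14. C1qa, which encodes a chain of the C1q recognition molecule, was 3.57, 2.77 and 2.90 in LDIR and 2.64, 1.43 and 2.06 in sham mice, a difference of 1.04. C3ar1, the receptor of the C3a fragment, was -1.73, -1.80 and -2.03 in LDIR and -2.42, -3.32 and -2.65 in sham mice, a difference of 0.94. In each of these the LDIR arrays lay above the sham arrays, while C3 itself lay below. Others among the 9, named after their values were seen, were C1qb, C1qc and Cfp, with Cfi and C8a near background. limma's adjusted p was at least 0.677 for every one of the 9. A slide block left 0 of them called when all 24 arrays were fitted, and 1 within the 6 arrays. The differences of C6, C1qa and C3ar1 under it were 0.80, 1.02 and 0.80. After normexp background correction they were 0.61, 0.99 and 0.51, and C3ar1 was not called.

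Macrophage markers were read beside the complement genes. 4 of 8 were called higher in the same LDIR mice, Cd68, Emr1, Mrc1 and Fcgr1, by 0.73 to 0.93, against 3.37% of all probes called higher. limma's adjusted p was at least 0.699 for each. The list sum was 73.1 to 92.2 in LDIR and 42.9 to 69.9 in sham mice. All 8 were above background on every array of both groups. A slide block over all 24 arrays left 0 called. Their part in the complement values was not tested. Neutrophil markers, which bear on Ltf and Lcn2, had 1 of 11 called higher, Ly6g, and a sum of 130 to 143 in LDIR and 148 to 179 in sham mice. Of 9 hepatocyte markers, which bear on Hp, 5 were above background on all 3 arrays of either 4-week BALB/c group, and their list sum was 177 to 284 in LDIR and 303 to 448 in sham mice, which did not overlap. Cyp2e1, a cytochrome P450, made up most of it, at 7.33, 8.03 and 7.96 in LDIR and 8.30, 8.76 and 8.16 in sham mice. Alb, albumin, was 0.56, 2.71 and 1.54 in LDIR and 1.55, 1.52 and 1.03 in sham mice, and Apoa1 and Ttr were well above background on 0 of 3 arrays in both groups. The members of this list that were called, Fgb (-2.94) and Serpina1a (1.07), went opposite ways and also belong to the other acute-phase genes below. The part of this list in the Hp value was not tested. The sum of 8 white adipocyte markers was 2287 to 3323 in LDIR and 2970 to 3701 in these sham mice and overlapped. Over the groups it was lowest in BALB/c on 8-week LDIR array B (1211), and lowest in SPRET/EiJ on LDIR array A (1380). The same arrays had the lowest Hp and Orm1 of their strain, 4.48 and 1.32 on the former and 6.69 and 0.42 on the latter. Other lists were extreme there as well. The sums of the hepatocyte markers (141 and 51.6) and of the other acute-phase genes (186 and 122) were the lowest of their strain. Those of B and plasma cell markers (140 and 131) were the highest. The part of these cells was not tested.

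**Figure D5:**
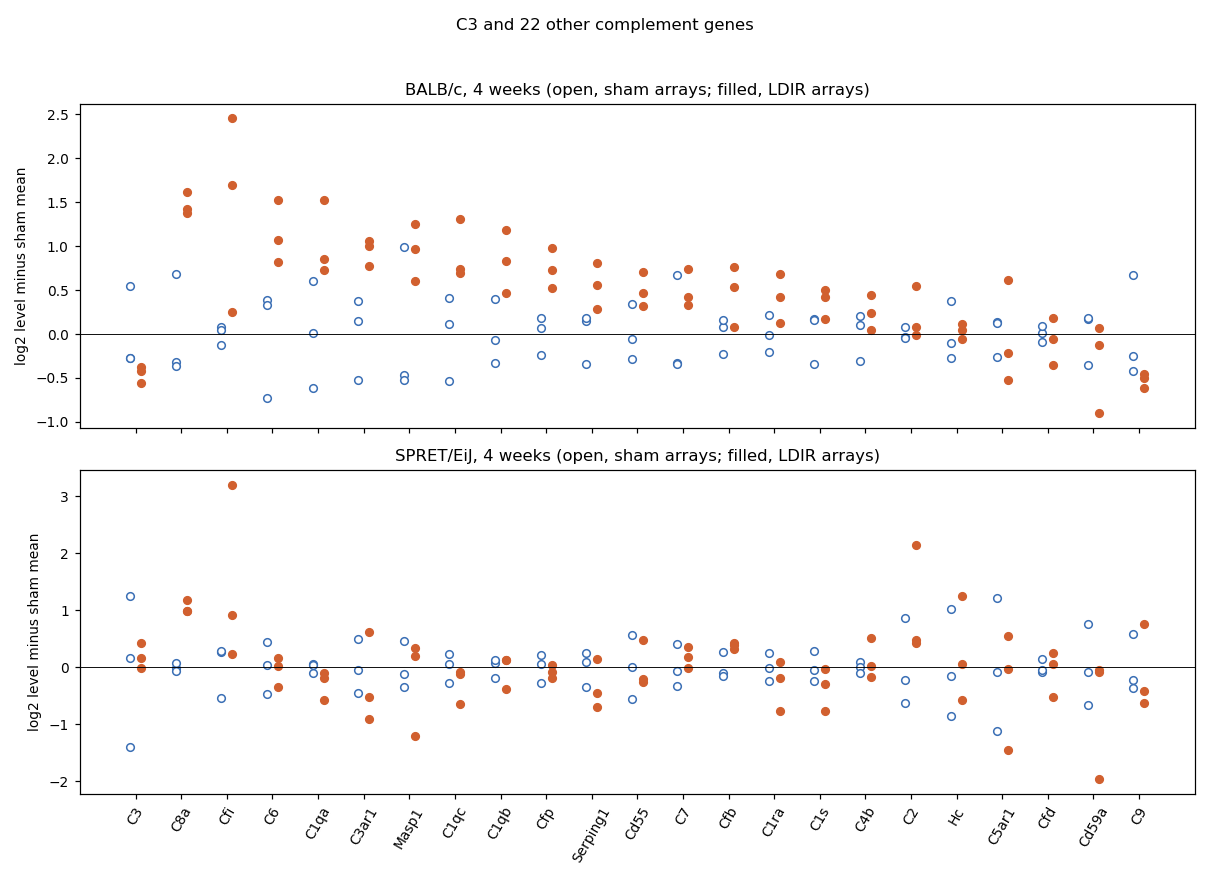
Level of C3 and of 22 other complement genes on each 4-week array minus the mean of the sham arrays of its strain (y axis, log2), BALB/c above and SPRET/EiJ below, 1 symbol per array (open sham, filled LDIR). The BALB/c LDIR symbols of most listed genes lie above 0 (list median 0.50) and those of C3 below, while the SPRET/EiJ LDIR symbols spread around 0 (list median -0.08).

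The same list gave 0 of 23 called at 2 weeks, against 3.13% of all probes. At 8 weeks 1 of 23 was called lower: C5ar1, the receptor of the C5a fragment, by -1.24. That call was lost in 4 of 16 alternative settings, with -0.44 after normexp background correction. In SPRET/EiJ 1 of 23 was called higher, against 2.2% of all probes: C8a, not well above background on any array. The interaction of strain and LDIR called 7 of 23 complement genes, higher in the BALB/c response, against 3.53% of all probes, with adjusted p of 0.957. A slide block over 24 arrays left 0 of these called. Leaving out 1 array gave 3 to 10, with 3 without BALB/c sham array B or LDIR array A and 4 without SPRET/EiJ sham array B. Of 8 macrophage markers 1, Mrc1, was called higher in this interaction. The median of that list was 0.90, beside 0.01 over all probes, and its part in the complement values was not tested. The same interaction called 4 of 23 other acute-phase genes, with the same adjusted p. Fgb (-3.49) and Fgg (-3.31), which encode chains of fibrinogen, and Itih4 (-1.56) were lower in the BALB/c response, and Hpx (0.83), hemopexin, was higher. In SPRET/EiJ sham mice Fgb was already at background (mean -5.82), so a fall with LDIR in that strain could not have been seen. Fgg had a mean of -5.20 there, near the lowest signals well above background on those arrays (-5.57, -5.49 and -5.60). A fall as large as that in BALB/c could not have been seen for Fgg either. For Fgb and Fgg the interaction therefore cannot show that the strains responded differently. With the slide block Fgb and Fgg were still called, at -3.80 and -4.40, and after normexp background correction they were at -1.96 and -1.92. The limit given for Fgb and Fgg holds in these settings too. Of the 23, Fgb and Fgg were called lower in LDIR mice at 4 weeks, with differences of -2.94 and -2.80, and Serpina1a, which encodes a protease inhibitor of plasma, higher by 1.07. That is 3 of 23, against 4.78% of all probes. After normexp background correction Fgb and Fgg were still called, at -1.93 and -1.83. At 8 weeks Fgb and Fgg were called higher by 2.39 and 1.86, and the Fgg call was lost in 7 of 16 alternative settings and that of Fgb in 0. Chi3l1, a chitinase-like protein of the mucosal list, was called higher at 8 weeks by 0.85, a call lost in 8 of 16. The 8-week calls were 2 of 23 acute-phase, 1 of 20 mucosal, 1 of 23 complement and 0 of 33 cytokine genes, against 1.8% of all probes. Of 33 cytokine and signalling genes, Socs3, the feedback inhibitor of STAT3 signalling, was called lower at 4 weeks by -0.64 and Il22 higher by 0.60, and each of these calls was lost in 9 of 16 alternative settings. That is 2 of 33, against 4.78% of all probes. Of 20 mucosal and milk defence genes Lyz1, lysozyme, and Lpo, lactoperoxidase, were called higher at 4 weeks by 0.92 and 0.75. That is 2 of 20, against 3.37% of all probes called higher. In the same mice 2 of 7 milk protein markers were called higher, Csn1s1 and Csn2, with sham means of -5.69 and -7.66. The median difference of that list was 1.65, beside 0.02 over all probes, but it includes genes near background. Of the 7, 2 were above background on all 3 sham arrays and 3 on all 3 LDIR arrays. The list sum was 12.1 to 16.4 in LDIR and 6.01 to 14.7 in sham mice and overlapped. The part of this list in the mucosal values was not tested. limma's adjusted p was 0.685 for Fgg at 4 weeks and higher for the rest. With slide as a block within the 6 arrays of 4 weeks Serpina1a, Lyz1, Lpo and Il22 were no longer called, at 1.07, 0.64, 0.40 and 0.31.

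Between the sham strains the wider lists held called genes in both directions. C2, a complement protease, was higher in BALB/c by 4.26 and Hc, complement C5, by 5.24, with adjusted p of 0.0011 for each. Cfi, complement factor I, was well above background on 0 of 3 BALB/c sham arrays and was at least 10.0-fold higher in SPRET/EiJ (adjusted p 0.00015). Of the acute-phase genes Fgb was well above background on 0 of 3 SPRET/EiJ sham arrays, with BALB/c at least 37.5-fold higher at an adjusted p of 0.0023, and Fgg was higher in BALB/c by 4.44 (adjusted p 0.0024). Itih3, a plasma protease inhibitor heavy chain, had a difference of -4.18, higher in SPRET/EiJ. Of the mucosal genes Defb1, a beta-defensin, was well above background on 0 of 3 SPRET/EiJ sham arrays, with BALB/c at least 16.9-fold higher at an adjusted p of 0.0017. Xdh, xanthine oxidoreductase of the milk fat globule, and Lpo were higher in SPRET/EiJ, with differences of -2.56 and -1.98. These bounds hold for the processed signal. After normexp background correction, which adds a constant to every signal, the differences were 2.62 for Fgb, -1.20 for Cfi and 1.82 for Defb1, all under the bounds, and Defb1 was not called. Those of Fgg, Itih3 and Itgax were then 2.28, -2.58 and 1.51, and each was still called. The lists had 5 of 23 acute-phase, 5 of 20 mucosal, 4 of 23 complement, 3 of 33 cytokine and signalling and 2 of 13 receptor genes called, against 8.85% of all probes, so that the share of the cytokine list was near that of the array. Hepatocyte markers, a list that holds Fgb too, summed to 303 to 448 in BALB/c sham and 59.4 to 129 in SPRET/EiJ sham mice. Cyp2e1, with means of 8.41 and 5.49, made up most of the BALB/c sum. The median difference of the list went the other way, at -0.22, beside -0.06 over all probes. Of the 9, Alb (1.20), Cyp2e1 (2.92) and Fgb were called higher in BALB/c and Serpina1a was called lower. The part of this list in these values was not tested. Upstream of the acute phase, Stat3 was higher in BALB/c by 2.88, Tlr4, the lipopolysaccharide receptor, by 1.74 and Ly96, its partner, by 1.37. Of the receptors, Cr2, a complement receptor, had a difference of -5.61 and Itgax, a chain of another, of 2.63. Over 16 alternative settings the calls of C2 and Stat3 between sham strains were lost in 0. Those of Tlr4, Lpo and Itgax were lost in 4, 6 and 7, and those of the other listed genes named here in at most 3. With slide as a block over 24 arrays, C2 and Stat3 were still called, while Hc (4.93), Cfi (-6.44), Fgb (4.39), Fgg (4.51), Defb1 (6.86), Xdh (-3.38), Lpo (-1.97), Itih3 (-3.31), Tlr4 (1.18), Ly96 (1.30), Cr2 (-1.92) and Itgax (2.86) were not. In LDIR mice the same lists had 1 of 23, 4 of 20, 3 of 23, 3 of 33 and 2 of 13 genes called, against 5.67%. Hc, C2, Stat3, Tlr4 and Ly96 were again called higher in BALB/c, by 5.03, 3.45, 2.32, 1.88 and 1.75. Defb1 was at least 7.55-fold higher there (adjusted p 0.013), and Muc15, a mucin, was higher by 2.47, well above background on 1 of 3 SPRET/EiJ LDIR arrays. Called higher in SPRET/EiJ LDIR mice were Cr2 (-5.61), Cfi (-5.25, well above background on 1 of 3 BALB/c LDIR arrays), Slpi, a protease inhibitor of secretions (-4.49), Itih3 (-4.25) and Fpr1, a formyl peptide receptor (-1.74). With the same slide block C2, Stat3 and Ly96 were still called. The others of these were not, with differences under it of 4.34 for Hc, -4.80 for Slpi, -3.67 for Itih3, 2.78 for Muc15, -1.95 for Fpr1, 1.36 for Tlr4, -2.45 for Cr2, 6.46 for Defb1 and -6.47 for Cfi. After normexp correction Defb1 (1.36), Muc15 (0.72), Cfi (-2.19) and Fpr1 (-0.61) were not called, and Defb1 was under its bound. Over 15 alternative settings the call of Stat3 was lost in 0 and those of Slpi, C2, Defb1, Cfi and Fpr1 in 6, 7, 8, 9 and 10.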

How the data were processed

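Per the labels and the file headers, the authors deposited Agilent Feature Extraction output with processed signal intensity per spot (probe coordinates on mm9) and a table of log2 values scaled to each array's 75th percentile. From the deposited intensity, outlier spots were left out, spots of a probe averaged, log2 taken and the 75th percentile subtracted. All of the authors' log2 values lay within 0.01 of these after an offset per array, of at most 0.04. Each comparison was fitted on its own arrays with limma (version 3.58.1, under R 4.3.3), with Benjamini-Hochberg adjustment over the 55679 to 55681 probes tested. The scripts were tested on simulated data. An exact permutation test of 3 against 3 cannot go below p = 0.1. Figures used matplotlib 3.10.9.

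Members and lists were chosen with earlier results of these data known. Up to 3 genes per list and comparison of 2 groups were named: those called with the largest differences, if every array of the higher group was above background. Where C3 or Lbp is named without its probe in a correlation, the brighter probe is meant. Replicate letters are shared by groups. Over 29395 detected probes their deviations correlated by 0.17 (A), 0.48 (B) and 0.17 (C) at 2 weeks, so letters were read as pairs there, but over all probes by 0.01, 0.14 and -0.03, so this reading rests on the detected probes. Elsewhere at least 1 letter was under 0.1. In the complement list 1 gene is counted and is not reported by name or drawn here.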

Additional observations from a re-analysis of the deposited data

Results flagged for a closer look

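The LDIR difference of the fibrinogen genes changed sign between times in BALB/c. Fgb was 0.78, -1.75 and -0.01 in sham and -1.84, -3.75 and -4.20 in LDIR mice at 4 weeks, and -3.48, -3.56 and -1.94 in sham and 0.34, -0.97 and -1.18 in LDIR mice at 8 weeks. The difference at 8 weeks minus that at 4 weeks was 5.33 (SE 1.13) for Fgb and 4.66 (SE 0.99) for Fgg. limma's unadjusted p was 0.00077 for each and the adjusted p was 0.987, beside 4.19% of all probes past the same call rule, and the smallest adjusted p of all probes was 0.171. This test was added after the values were seen.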

How the results depend on the processing

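The number of arrays per group limits these results, and the values of single arrays decide several of them. For the LDIR comparison at 4 weeks in BALB/c, the methods' t-test, the fit with the replicate block, the fit of all 24 arrays and that fit with slide as a block each called 0 member probes in place of 1, and slide as a block within the 6 arrays called 1, that of Saa2 and not Hp. Leaving out 1 array gave 0 to 3 calls, with 3 (Hp and both Lbp probes) without sham array C. The Hp difference ranged from -0.89 to -0.32 over 16 alternatives, with adjusted p from 0.310 to 1.0. Leaving out 1 array gave 0 to 1 calls at 2 weeks (the Lbp junction probe, without LDIR array C) and 0 to 1 at 8 weeks (the second Lbp probe, without sham array A). In SPRET/EiJ the fit of all 24 arrays called 2 (Saa1 and Saa2) and that with slide as a block 3 (the second Lbp probe too), and leaving out 1 array gave 0 to 2 (Lcn2 and Saa2 without sham array B, the second Lbp probe without sham array C). Between sham strains the methods' t-test, the replicate block and the slide block in 24 arrays each called 0, and leaving out 1 array gave 0 to 1 (the Lbp junction probe in place of Hp without BALB/c sham array C). There the Hp difference ranged from -2.96 to -1.67, with adjusted p from 0.0012 to 0.137. Between LDIR strains normexp background correction called 1 (the 10-spot C3 probe), quantile normalization 2 (that probe and the chromosome 1 Pigr probe), detected probes only 1 (the second Lbp probe), the fit of all 24 arrays 2 (Hp and the second Lbp probe) and leaving out 1 array 0 to 1 (Hp, without SPRET/EiJ LDIR array A). The interaction called 1 (Saa1) in the fit of all 24 arrays and 0 to 3 with 1 array left out (3 without SPRET/EiJ sham array C). Its complement count of 7 became 0 with the slide block in 24 arrays and 3 to 10 with 1 array left out, and its count of 3 acute-phase genes called lower 2 to 4 over all alternatives. Over the 3 BALB/c times no alternative gave a call. The complement count of 9 became 4 with the methods' t-test, 0 with the slide block in 24 arrays, 1 with it in 6 arrays, and 4 to 9 with 1 array left out (4 without sham array B or LDIR array A). The count of 4 macrophage markers became 7 among detected probes only, 0 and 1 with slide in 24 and 6 arrays, and 3 to 6 with 1 array left out. The replicate block changed no other count of calls by over 1.5 times, and none of the single differences that were recomputed changed direction. These were Hp in the comparisons that called it, Hp with the C3, Lbp and Pigr probes named between LDIR strains, and the listed genes named by the rule, and not the other member values. The cause of these changes was not tested. Where an arm kept 2 arrays, its spread was pooled across the fit. The alternatives for complement genes, macrophage markers and other listed genes were chosen after seeing the data.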
